A study of Arabidopsis thaliana with 14 samples.

Results

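AT3G55720 is a protein-coding gene on chromosome 3 of Arabidopsis thaliana. It was taken as the gene paired alone with 1 probe set by the platform annotation, which makes it 1 of 22746 probe sets on the array without controls and 1 of the 13513 that the annotation pairs with a single gene. It was chosen because its transcript was higher on KAR1 in an earlier look at the same arrays, so its KAR1 differences are given as a description with no test. The levels came from 14 single-colour 3' expression arrays of primary dormant seed, imbibed for 24 h at 20 C in white light of 100 uE on 0.8% agar. Wild type seed of ecotype Landsberg erecta was placed on water (4 arrays) or on 1 uM KAR1 (4 arrays), and seed of the mutant ga1-3 on water (3 arrays) or on 1 uM KAR1 (3 arrays). The labels give an ecotype for the wild type only. All seed came from plants grown in continuous light and had been kept frozen to preserve dormancy. Each array of a group came from a separately harvested seed batch, with letters A to D for wild type and letters A to C for ga1-3. Batch A of wild type and batch A of ga1-3 are different seed.

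KAR1 is a karrikin, one of a group of small butenolides in smoke that promote germination of dormant seed. In Arabidopsis the receptor KAI2 and the F-box protein MAX2 act together to remove repressors of the SMAX1 family. Karrikin-treated seed needs light and gibberellin synthesis to germinate. GA1 encodes the first committed enzyme of gibberellin synthesis, and per the study's design neither water nor KAR1 lets ga1-3 seed germinate. AT3G55720 encodes a member of a small plant family defined by a domain of unknown function, DUF620; the reference gene table lists it by its locus alone. Whether and how far its transcript differs with KAR1 in seed that can and seed that cannot germinate is the question the arrays address.

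The arrays were alike in scale, with a median intensity between 10.4 and 12.6, and correlated with each other at 0.943 to 0.999. Both arrays of wild type batch A stood apart: the 69 probe sets of plastid-encoded genes lay a median of 2.01 and 2.14 above their means over all arrays (log2), against -1.13 to 0.50 on the other 12 arrays. Differences of AT3G55720 that rest on this batch are given below with and without it, whereas correlations within a medium are given only with it. As a check of the tissue, only 2 of the 14 listed seed markers had a named probe set, and both lay far above an intensity of 16 (log2 of 4), the limit used here for low signal: the storage protein gene PAP85 averaged 14.60 and LEA4-5 12.75 (log2 intensity). GA1 had no named probe set and was not analysed here, so the mutant label was not checked against its own gene.

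The AT3G55720 transcript was present at a low to moderate signal on water and higher on KAR1 in every seed batch of both genotypes. In wild type on water its intensity was 14.9 in batch A, 33.7 in B, 29.7 in C and 30.5 in D. In wild type on KAR1 it was 46.5, 64.9, 66.1 and 75.6 in the same batches. The groups did not overlap, and batch A was the lowest of the 4 on both media. How many of all probe sets show no overlap of water and KAR1 within a single genotype was not counted. In ga1-3 on water the intensity was 34.6 in batch A, 34.3 in B and 40.5 in C, and on KAR1 it was 107.2, 92.8 and 112.6. These groups did not overlap either, and the 3 ga1-3 batches lay closer together than the 4 wild type batches. Without wild type batch A the order turned round on both media. The other wild type batches then spanned 4.89 to 5.07 on water and 6.02 to 6.24 on KAR1 (log2). The ga1-3 batches spanned 5.10 to 5.34 and 6.54 to 6.82. The mean log2 intensity was 4.70 ± 0.54 (SD, n = 4) and 5.96 ± 0.30 (SD, n = 4) in wild type on water and KAR1, and 5.18 ± 0.13 (SD, n = 3) and 6.70 ± 0.15 (SD, n = 3) in ga1-3. In order of level, wild type on water was lowest, followed by ga1-3 on water, wild type on KAR1 and ga1-3 on KAR1. The lowest neighbours in this order, both on water, did not differ beyond their spread in the test given further on. In whole seed, fewer cells with the transcript and less transcript per cell cannot be told apart.

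**Figure D1:**
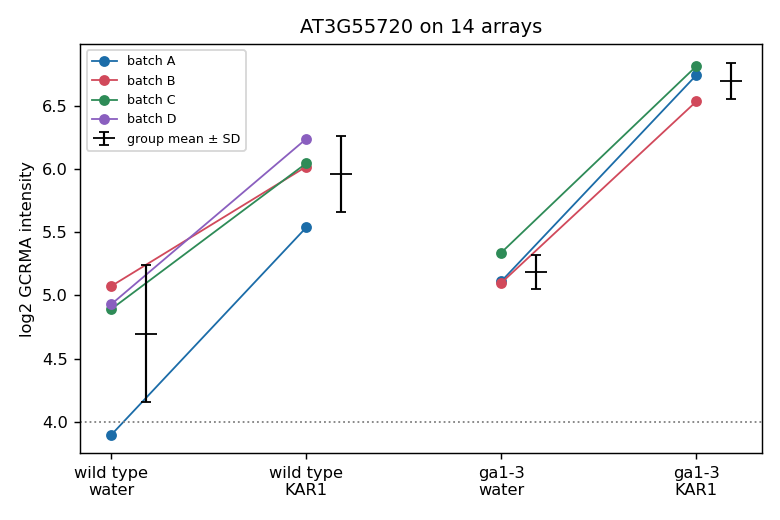
Log2 GCRMA intensity of AT3G55720 on each of the 14 arrays, by group; lines join the water and KAR1 arrays of 1 seed batch, a letter names different seed in the 2 genotypes, black bars are group means ± SD, and the dotted line marks an intensity of 16. Every line goes up, and wild type batch A lies below the other wild type batches on both media, at 14.9 on water and 46.5 on KAR1.

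Within seed batches the KAR1 difference of AT3G55720 lay between 1.93-fold and 3.12-fold. KAR1 over water was 3.12-fold in wild type batch A, 1.93-fold in B, 2.23-fold in C and 2.48-fold in D. It was 3.10-fold in ga1-3 batch A, 2.71-fold in B and 2.78-fold in C. With all batches the ranges overlapped, through wild type batch A alone: without it wild type spanned 1.93-fold to 2.48-fold, below each ga1-3 batch. The smallest difference of all was in wild type batch B, which had the highest wild type level on water. The mean log2 difference was 1.26 ± 0.29 (SD, n = 4 batches) in wild type, or 2.40-fold, and 1.51 ± 0.10 (SD, n = 3 batches) in ga1-3, or 2.86-fold. Averaged over the genotypes it was 1.39 ± 0.18 (SE of the limma fit), or 2.62-fold. Without wild type batch A, the difference in wild type was 1.14. The part of the high plastid values of that batch in its low AT3G55720 level was not tested.

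Set against the other probe sets, the difference ranked between 8th and 83rd of 22746 rises in each single batch. It ranked 8 in ga1-3 batches B and C, 33 in ga1-3 A, 15 in wild type A, 59 in B, 46 in C and 83 in D. In each batch it exceeded the 99th percentile of all probe sets, which lay between 0.55 and 0.91 (log2). For the mean over both genotypes it ranked 9 over all probe sets, and 6 among those paired with 1 gene. A total of 513 probe sets (2.26%) were higher on KAR1 in all 7 batches, 5 (0.022%) were so by at least 1.9-fold, a value set with the member's lowest difference known, and for 9 (0.0396%) every KAR1 array of either genotype lay above every water array. The gene was chosen for this contrast, so these shares are its background and support nothing. Besides AT3G55720, the genes named among the 9 were AT1G70420, AT2G16365 and AT3G60290, and those among the 5 were AT1G33590 and AT2G16660.

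**Figure D2:**
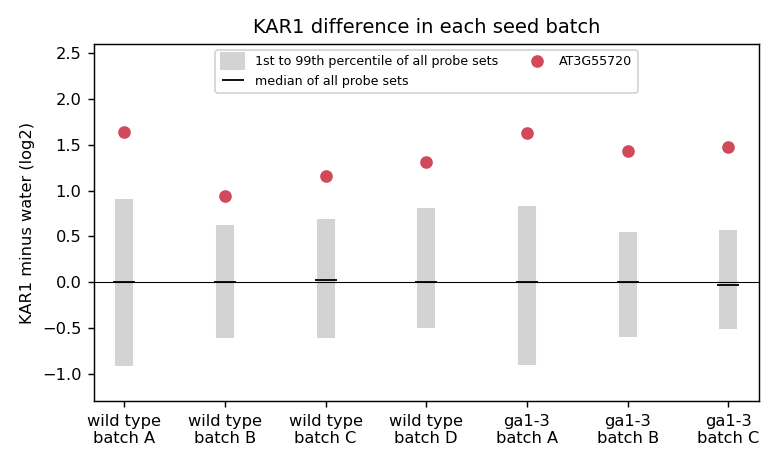
KAR1 minus water of AT3G55720 (red points, log2) in each of the 7 seed batches; grey bars span the 1st to 99th percentile of all 22746 probe sets and black ticks are their medians. The points lie between 0.95 and 1.64, above the grey bar in every batch.

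No difference in KAR1 response between the genotypes was detected for AT3G55720. The test uses the same KAR1 differences for which the gene was chosen, so it is no independent support for like responses. The interaction (the KAR1 difference in ga1-3 minus that in wild type) was 0.25 ± 0.36 (SE, log2; limma adjusted p = 1.00), with a 95% interval from -0.54 to 1.04. On the linear scale the response in ga1-3 was thus 1.19 times that in wild type, with an interval from 0.688 to 2.06 times, which does not show equal responses. This fit leaves out the pairing of arrays by seed batch. With the seed batch as block the estimate was the same, with a narrower 95% interval from -0.16 to 0.66 (log2) that also held 0. Over all probe sets 0 (0%) passed the test without block, and 116 had an unadjusted p under 0.05. The adjusted p stayed at 0.801 or more in all 30 alternative settings. Without the wild type water array of batch A the estimate was 0.52 (95% interval 0.01 to 1.03 before adjustment, adjusted p = 1.00), and without both arrays of that batch it was 0.38.

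The transcript was also higher in ga1-3 than in wild type, with a larger value on KAR1 than on water, though the interaction above did not show these to differ. On KAR1 the lowest ga1-3 array (92.8) lay above the highest wild type array (75.6), as for 24% of all probe sets, and the difference was 1.67-fold (log2 0.74 ± 0.26 SE, limma adjusted p = 0.0402). On water the groups also did not overlap, but by a small margin (34.3 against 33.7, against 22.6% of all probe sets without overlap in this direction), and the difference was 1.40-fold (0.49 ± 0.26, adjusted p = 0.157), which did not pass. Averaged over both media it was 1.53-fold (0.61 ± 0.18, adjusted p = 0.0135). That fit counts the water and KAR1 arrays of a seed batch as independent. With the seed batch as a random block in limma the adjusted p of the mean was 0.0263. The genotype contrasts were not used to choose the gene. They are to be read against a background in which 37.6% of all probe sets passed on KAR1, 36.5% on water and 55.1% for the mean, so a pass is common on these arrays. In 17.4% of probe sets every ga1-3 array lay above every wild type array on both media, as for AT3G55720. Of the listed markers, the leaf gene RCA (Rubisco activase) was higher in ga1-3 on water by 1.17 (log2, adjusted p = 0.000232) and the seed gene LEA4-5 lower (-0.39, adjusted p = 0.00435). LHCB4.1 (0.45) and PAP85 (0.03) did not pass, and the part of these markers in the result was not tested.

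The genotype difference was less stable than its direction. On KAR1 the call was lost in 8 of the 14 fits that left out 1 array, namely wild type KAR1 A, B or C, ga1-3 water B or C, and ga1-3 KAR1 A, B or C, with estimates of 0.60 to 0.83. It was also lost without both arrays of wild type batch B or C, or of ga1-3 batch A, B or C. The mean over both media kept its call in all 14 fits without 1 array (0.48 to 0.67) and lost it without ga1-3 batch C (0.54, adjusted p = 0.0745). None of these fits had a block for seed batch. Without wild type batch A the difference on water was 0.22 (adjusted p = 0.166), and on KAR1 it was 0.60 (adjusted p = 0.00253).

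The 21 probe sets for spiked control transcripts divided the arrays into 3 clusters, which are partly aligned with genotype. Cluster 1 held wild type batches A and B, cluster 3 held ga1-3 batches B and C, and cluster 2 held ga1-3 A together with C and D of wild type. With the cluster as an additive block the difference was 0.53 on KAR1 (adjusted p = 0.312), 0.28 on water (0.640) and 0.40 for the mean (0.337). Within cluster 2, with a single ga1-3 seed batch, it was 0.60 on KAR1 (adjusted p = 0.0743), 0.20 on water (0.335) and 0.40 for the mean (0.0645). Direction stayed the same in these fits. For the mean, both settings give the same estimate, since only cluster 2 holds both genotypes, so they do not back each other. The fit within cluster 2 has 1 array in each ga1-3 group and few degrees of freedom, so its p-values say little about stability. Clusters 1 and 3 each held 1 genotype, so no value within them could be had. The KAR1 difference within cluster 2 was 1.23 in wild type and 1.63 in ga1-3, about the size over all arrays.

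**Figure D3:**
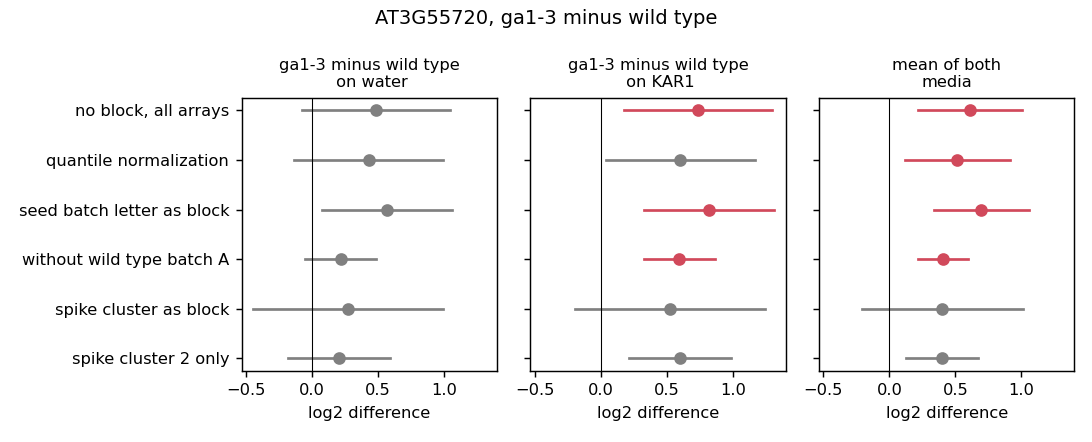
Log2 difference of AT3G55720, ga1-3 minus wild type, on water, on KAR1 and averaged over both media, under 6 settings; points are estimates, lines are 95% intervals of the limma fit, and red marks an adjusted p under 0.05. All estimates lie above 0, from 0.20 to 0.82, and no setting gives a call on water. The setting with the seed batch letter as block, which gives the 0.82, pairs different seed of wild type and ga1-3 and is no support.

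The DUF620 family was listed from general knowledge, since the gene table gives no protein description to check it against. All 7 other listed members had a named probe set, and 0 of 7 passed the limma test for the mean KAR1 difference in either direction, where 0.0176% of all probe sets passed upward and 0.0044% downward; a count of 0 is thus at the background. Their median difference was 0.00 (log2), as over all probe sets, and their range was -0.05 to 0.33. Only 3 of the 7 had a mean intensity of 16 or more, and at the low signal of the other 4 a difference may not be detectable. AT3G19540 had a KAR1 difference of 0.33 ± 0.29 (SE, adjusted p = 1.00) and was higher on KAR1 in 4 of 7 batches, from -0.25 to 1.38. Its highest differences were in batch A of each genotype, with 1.38 in wild type and 0.88 in ga1-3. AT1G27690 (-0.04 ± 0.21) and AT1G49840 (-0.05 ± 0.12) were each higher in 2 of 7.

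Between genotypes the family differed from gene to gene. On water 3 of the 7 were higher in ga1-3 and 2 lower, against 19.7% and 16.8% of all probe sets. AT1G27690 was 2.04-fold higher in ga1-3, with 72.6 to 138.3 on water against 32.1 to 69.2 in wild type (adjusted p = 0.0167). The groups did not overlap, the call was lost without the ga1-3 water array of batch B or C, and with the spike cluster as block the difference was 0.42 (adjusted p = 0.407). AT3G19540 was 2.34-fold higher on water (adjusted p = 0.035), with overlapping arrays (38.4 to 103.2 against 14.4 to 52.7). Its call was lost without wild type water A or C or ga1-3 water B or C, and the cluster block gave 0.56 (0.520). AT1G49840 did not pass (-0.25, adjusted p = 0.254). The other calls, AT5G66740 upward and AT1G75160 and AT1G79420 downward, were of 0.08 or less in size at mean intensities under 16, and each had an adjusted p of 1.00 once low values were raised to 16.

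Genes next to AT3G55720 on the chromosome were also examined. Of the 5 protein-coding genes on each side in the TAIR10.1 table, 6 had a named probe set, and 0 of 6 passed in either direction, as nearly all probe sets did not (0.0176% upward and 0.0044% downward). Only 2 of them had a mean intensity of 16 or more. WLIM2b (AT3G55770), which encodes a LIM-domain protein that binds actin, was lower on KAR1 in 7 of 7 batches at -0.18 ± 0.18 (adjusted p = 1.00), as were 2.14% of all probe sets. AT3G55760 had a difference of -0.03 ± 0.24. The adjacent gene AT3G55710 lay under 16, and MYB109, the neighbour on the other side, was not analysed here.

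**Figure D4:**
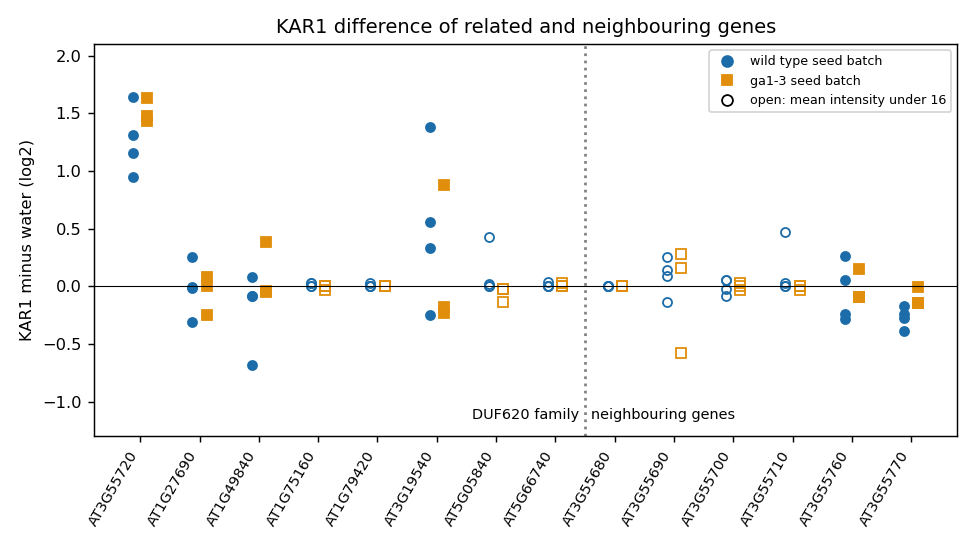
KAR1 minus water (log2) in each seed batch for AT3G55720, the 7 other DUF620 genes and the 6 measured neighbours; blue circles are wild type batches, orange squares ga1-3 batches, and open symbols mark genes with a mean intensity under 16. All 7 points of AT3G55720 lie above 0.9, whereas those of AT3G19540 run from -0.25 to 1.38 and those of the other genes from -0.68 to 0.47.

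Of the 16 listed genes of karrikin signalling and response, 7 had a named probe set. KAI2, MAX2, SMAX1, SMXL2, DLK2, KUF1, BBX20, D14 and HY5 were not analysed here. The measured members had been put on the list with their values on these arrays known, so their count is no independent evidence. For the mean KAR1 difference 2 of 7 passed upward and 1 downward, against 0.0176% and 0.0044% of all probe sets. AT3G60290, a 2-oxoglutarate-dependent oxygenase, rose 3.62-fold, and AT1G25520 rose 1.60-fold. HAT2, a homeodomain-leucine zipper factor of auxin and shade responses, fell by 0.74 on the log2 scale. All 8 wild type arrays of HAT2 lay under 16 (7.8 to 13.8), and its call was lost with values raised to 16 (-0.49, adjusted p = 0.170) and with quantile normalization (0.0629). Leaving out 1 array removed these calls in 10, 9 and 12 of 14 fits. With the seed batch as block all 7 passed, 6 upward and 1 downward, where 0.286% and 0.0923% of all probe sets did. Those added were PCH1 (AT2G16365), which stabilises active phytochrome B, the cryptochrome inhibitors BIC1 and BIC2, and the light-signalling bZIP factor HYH. Their differences were 1.06, 0.64, 0.85 and 0.61, with adjusted p from 0.0214 to 0.0458 with the block and from 0.0637 to 0.663 without.

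On water 3 of these 7 genes were higher in ga1-3 and 0 lower, against 19.7% and 16.8% of all probe sets. HAT2 was at least 4.63-fold higher (adjusted p = 4.11e-08), a bound taken against an intensity of 16, since its wild type arrays on water lay at 9.7 to 13.8. BIC2 was 2.12-fold (0.00408) and BIC1 1.57-fold (0.00768) higher. PCH1 had a difference of 0.36 (adjusted p = 0.215), close to the 0.49 of AT3G55720. AT3G60290 had -0.83 (adjusted p = 0.0756). On KAR1, 3 of the 7 were higher in ga1-3 and 0 lower, where 37.6% of all probe sets passed in either direction. HAT2 was at least 2.35-fold higher, again against an intensity of 16 (adjusted p = 3.51e-05 with values raised to 16). BIC1 was 1.54-fold (0.00897) and AT1G25520 1.38-fold (0.00763) higher. The call of AT1G25520 was lost with quantile normalization (adjusted p = 0.0611) and with values raised to 16 (0.0544).

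Gibberellin and dormancy genes showed no KAR1 call without block, as nearly all probe sets did not (0.0176% passed upward and 0.0044% downward). The absence of calls is thus at the background. Of 17 gibberellin genes 5 had a named probe set, with 0 of 5 passing for KAR1 and 1 of 5 higher in ga1-3 on water, a share near the 19.7% of all probe sets. That gene was the gibberellin receptor gene GID1C, 1.87-fold higher (adjusted p = 0.00778), which had an adjusted p of 0.156 with the spike cluster as block. Of 11 dormancy and abscisic acid genes 2 were measured. XERICO, whose product raises abscisic acid levels, had a KAR1 difference of -0.45 ± 0.13 (adjusted p = 0.773) and was lower in 7 of 7 batches, as were 2.14% of all probe sets. XERICO passed downward with the seed batch as block (adjusted p = 0.0458), where 0.0923% of all probe sets did. SPT did not pass for KAR1. Of 7 leaf markers 2 were measured: LHCB4.1 had a KAR1 difference of -0.27 (adjusted p = 1.00, and 0.0488 with the seed batch as block) and RCA of -0.14 (1.00). No endosperm marker had a named probe set. The flower and pollen list had 1 of 3 members measured, under 16 on average.

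The genes whose levels were most like those of AT3G55720 were found among 5826 probe sets with 1 gene and a mean intensity of 16 or more, by Pearson's r over the 14 log2 levels. The arrays share seed batches, genotypes and normalization, so r is a description. The highest r were PCH1 (AT2G16365, 0.919), AT3G02450 (0.890), AT5G10120 of the ETHYLENE INSENSITIVE3 family (0.866), the multicopper oxidase gene LPR1 (0.863), AT1G25520 (0.862) and the MYB-related factor gene AT1G70000 (0.860). The median r was 0.08, and 19 probe sets were over 0.8. Since AT3G55720 separates water from KAR1, r can be raised by that separation alone, and r was therefore also taken within each medium. Separation by medium does not fix r, since AT3G60290 also separates them and had an r of 0.647. Over the 7 water arrays r was 0.588 for AT2G16365 and 0.266 for AT1G25520, but 0.924 for AT3G02450 and 0.887 for AT1G70000. Over the 7 KAR1 arrays it was 0.825, 0.769, 0.943 and 0.986 for the same genes. On water both AT3G55720 (14.9, against 29.7 to 40.5) and AT3G02450 (49.2, against 63.2 to 80.7) were lowest in wild type batch A. The r within a medium was not taken without that batch, and each medium holds both genotypes, so the part of either in it was not tested.

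AT2G16365 had a mean KAR1 difference of 1.06 (log2), against 1.39 for AT3G55720, and the order of its arrays differed in part. Its intensity in wild type batches A to D was 56.5, 93.1, 66.7 and 52.3 on water and 101.4, 148, 154.8 and 144.5 on KAR1. In ga1-3 batches A to C it was 77.2, 98.5 and 78.7 on water and 221.5, 152 and 162.2 on KAR1. As for AT3G55720, all KAR1 arrays lay above all water arrays. It stayed first in r when any 1 seed batch was left out, at 0.904 to 0.939. AT3G02450 differed less with KAR1, by a mean of 0.27 (log2), and its level on wild type water was lowest in batch A (49.2, against 67.4 to 69.9).

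**Figure D5:**
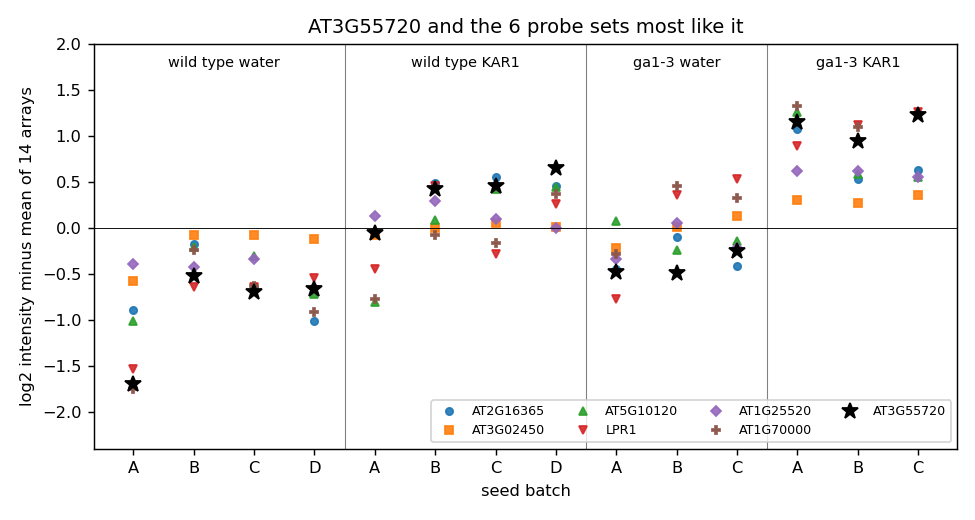
Log2 intensity minus the mean over the 14 arrays, for AT3G55720 (black stars) and the 6 genes with the highest r to it, by group and seed batch. The stars run from the low wild type water array of batch A (log2 3.90) to the ga1-3 KAR1 arrays (6.54 to 6.82), and AT1G70000 and LPR1 spread over a similar range.

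The lowest r belonged to AT5G58660 (-0.851), AT5G07020 (-0.851), AT1G27030 (-0.848) and AT3G03620 (-0.848), each lower on KAR1 in 7 of 7 batches by a mean of 0.27 to 0.46. Likeness of the KAR1 differences alone, as the cosine over the 7 batch differences, gave a different top 6, although 5 genes, AT2G16365, AT1G25520 and AT4G35110 among them, were in the top 20 of both measures. AT5G48540 (0.992), AT1G73650 (0.989), AT3G14880 (0.979), BIC1 (AT3G52740, 0.978), AT3G60290 (0.977) and AT4G35110 (0.973) were highest. They differed in size, from a mean of 0.33 for AT1G73650 to 1.86 for AT3G60290, since the cosine ignores size. None was among the 6 highest by r. The lowest cosines were those of AT5G37360 (-0.972), TRM20 (-0.969), the SWEET sugar transporter gene SAG29 (-0.969) and AT3G22520 (-0.968). SAG29 and AT3G22520 were at the same time higher in ga1-3 on water by 2.79 and 1.25 (log2). Their levels over the 14 arrays correlated with AT3G55720 at 0.208 and 0.335. TRM20 had an r of -0.002 with a genotype difference on water of 0.16, and AT5G37360 an r of -0.252 with 0.46. The part of the genotype difference in these r was not tested.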

How the data were processed

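The authors deposited a linear-scale intensity for each probe set on each array, made with GCRMA per the submitters' processing notes. GCRMA corrects background, normalizes and combines the probes of a set; its version, and whether all arrays were normalized together, are not given in the sources used here. Per the labels' protocols, biotinylated cRNA was made from 7 ug of total RNA by amplification from the 3' end. Arrays give no count of molecules, so their number and low signal limit the precision; an intensity of 16 (log2 of 4) was taken as low signal. The 64 control probe sets were left out, log2 was taken, and genes were named from the platform annotation through the TAIR10.1 gene table, which 13436 of 13513 probe sets matched.

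The test was that of limma 3.58.1 (R 4.3.3): group means of all 14 arrays without a block, robust eBayes with a trend, 2-sided, leaving 10 residual degrees of freedom, with Benjamini-Hochberg adjustment over 22746 probe sets and a call under 0.05. The fit was tested on simulated data with noise drawn independently for each array, so that check does not cover correlation within seed batches. Seed batch letters pair the water and KAR1 arrays of a genotype, per the labels; deviations from the group means correlated within the 7 pairs at 0.507 to 0.855. The gene, the lists, the tests and the settings were chosen with earlier results of these data known. All measured list members were followed, with the 6 highest and 4 lowest genes by each measure of likeness; 4 lists and the markers were compared. The settings tried were quantile normalization, median centring, a floor of 16, a filter on low values, plain eBayes, array weights, leaving out arrays or batches, seed batch and letter blocks, and spike clusters (average linkage on log2 values). The settings for list members were chosen after seeing the data. Probe sequences were not used here.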

Additional observations from a re-analysis of the deposited data

Results flagged for a closer look

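In wild type on water, the batch A array lay far below the other 3 for AT3G55720: the gap to the nearest array was 0.845 of the group's whole range on the log2 scale, above Dixon's 95% critical value for 4 arrays. On the linear scale the same ratio was 0.787, below that value, and on KAR1 it was 0.686 on the log2 scale.

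Among the other genes named, an array of wild type stood apart from its group in the same way for AT1G27690 on KAR1 (0.937, batch A), PCH1 on KAR1 (0.837, batch A) and SPY on KAR1 (0.833, batch A). Batch A also stood apart for AT3G02450 on water (0.896), LPR1 on water (0.901) and AT1G27030 on KAR1 (0.863). Another batch did so for AT3G60290 on KAR1 (0.932, batch B), PAP85 on water (0.844, batch D) and AT1G73650 on KAR1 (0.847, batch D). In all, 10 of 78 groups of values passed, and batch A was the far array in 7 of the 10. Chance flags about 1 in 20 for a single group. These groups reuse the same wild type arrays and are not independent, so their count is no test. Genes named for a high or low r to AT3G55720 were chosen on values that include its low batch A. Their batch A flags are therefore not independent of it.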

How the results depend on the processing

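The KAR1 difference of AT3G55720 moved by less than the pooled SD of its log2 levels within groups (0.349) in all 30 settings, at 1.00 to 1.40 in wild type, 1.46 to 1.63 in ga1-3 (the highest, in cluster 2 alone, is farther from 1.51 than the SD of 0.10 between ga1-3 batches) and 1.25 to 1.46 for their mean; with the seed batch as replicate block the mean was 1.39. The interaction (0.11 to 0.52) and the ga1-3 difference on water (0.20 to 0.61) kept their sign and did not pass in any setting. On KAR1 the ga1-3 difference lost its call with quantile normalization (0.60, adjusted p = 0.0875), with the spike cluster as block (0.53) and in cluster 2 alone (0.60, with fewer arrays), and leaving out arrays or batches gave 0.60 to 0.83. For the mean over both media it lost its call with the cluster as block and in cluster 2 alone. The 0.40 in each is the same estimate, since only cluster 2 holds both genotypes. Leaving out arrays or batches gave 0.41 to 0.70 for the mean. The cause of the loss under quantile normalization was not tested. With the seed batch letter as block the differences were 0.57 on water, 0.82 on KAR1 and 0.70 for the mean, with the same calls. A letter names different seed in wild type and ga1-3, so this block pairs unrelated seed and lends these differences no support. Its mean is the value found without wild type batch D, a letter that ga1-3 lacks. With the seed batch as a random block (consensus correlation 0.476) the difference on water did not pass (adjusted p = 0.122). The mean over both media kept its call with this random block (0.61, adjusted p = 0.0263). Of the 6 genes most like AT3G55720, 3 were shared with the 6 highest by Spearman's rho and 0 with the 6 highest cosines, and 3 to 6 when a seed batch was left out. The low value of wild type batch A on water (14.9) lies under 16, where the array resolves differences least.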
